A study of Homo sapiens with 8 samples.

Results

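The genes examined were those of PANC-1 spheroids that moved the same way with roseoflavin whether or not trametinib was present. PANC-1 is an established cell line from a human pancreatic ductal carcinoma. Its cells were held for 3 days in methylcellulose medium, in which they gather into spheroids, and were then treated for 24 h in 4 ways: with vehicle, with 10 µM roseoflavin (RoF), with 1 nM trametinib (Tr), or with both compounds (Tr+RoF). AsPC-1, an established line from a pancreatic carcinoma that had spread to the ascites, received the same 4 treatments and served as the comparison. There was 1 library per treatment and line, 8 in all, so no treatment had a replicate and each line was a single culture model. RNA was measured by sequencing of polyadenylated transcripts and given as TPM, a transcript abundance that is scaled to the same total in each library and holds no record of sequencing depth.

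The table held 62649 genes. Those with a RefSeq mRNA entry and a mean of at least 10 TPM over the 4 PANC-1 libraries numbered 8178. Of these, 5676 (69.4%) had the same sign in RoF minus vehicle and in Tr+RoF minus Tr on the log2(TPM + 1) scale, 2903 of them higher and 2773 lower. With mitochondrially encoded genes taken out and TPM rescaled, members numbered 1930 higher and 3891 lower. Shared sign was the criterion for membership and is not a result. Just inside the abundance minimum lay ARHGAP11B, with a mean of 10.0005 TPM, and just outside lay CTF1, with 9.99 TPM.

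Roseoflavin is a bacterial analogue of riboflavin, vitamin B2. Cells turn riboflavin into the cofactors FMN and FAD through riboflavin kinase (RFK) and FAD synthase (FLAD1), and flavoproteins use these cofactors in redox reactions; roseoflavin can enter the same route. Several well-known transcription programmes respond to redox or nutrient stress: NRF2 acts through antioxidant response elements on genes for glutathione, thioredoxin and NADPH supply, ATF4 acts on genes for amino acid supply and, with CHOP (DDIT3), on stress genes, HIF acts on glycolysis and oxygen-response genes, and SREBP acts on sterol and fatty acid synthesis. Trametinib inhibits the MEK kinases of the MAPK pathway.

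The PANC-1 libraries carried markers of the line, some of them at low levels. KRT8, KRT18 and KRT19 lay between 852 and 1032 TPM and VIM, a mesenchymal filament, between 3132 and 3391 TPM. The ductal keratin KRT7 lay between 3.26 and 3.84 TPM and the mesenchymal CDH2 between 5.48 and 5.57 TPM. CEACAM5 was listed at 0 in all 4 libraries, and acinar, islet, T cell, endothelial and fibroblast markers did not exceed 0.182 TPM. Of the other blood markers, PTPRC did not exceed 0.019 TPM, but CD68 lay between 120 and 139 TPM, against 108 to 114 TPM in AsPC-1. Pairwise correlation of the 4 libraries over the tested genes (Pearson's r on log2(TPM + 1)) was between 0.994 and 0.998. The share of TPM from mitochondrially encoded genes was lower in both roseoflavin libraries, at 23.7% in RoF against 25.6% in vehicle and 22.8% in Tr+RoF against 24.8% in Tr, and the share from cytosolic ribosomal protein genes was higher, at 4.99% against 4.47% and 4.97% against 4.70%. Because TPM sums to a fixed total, these shares move together with the level of every other gene, and their part in the results below was not tested beyond the rescaling given there.

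More genes were higher than lower by the larger amounts. At least 25% higher or 20% lower in both pairs (on TPM + 1), called the fold limit below, were 76 higher genes (0.929% of those tested) and 5 lower genes (0.0611%): LRP5L, LONRF2, EGR1, ATAT1 and PAX2. These counts were 69 higher and 12 lower with mitochondrially encoded genes taken out, and 55 and 0 with a pseudocount of 10. The limma test on the 4 PANC-1 libraries, with trametinib as a term, called 1555 genes (19.0%) at an adjusted p under 0.05, of which 849 were higher (10.4%) and 706 lower (8.63%). The called changes were mostly small: the median was 0.18 for the higher and -0.17 for the lower genes on the log2 scale. Across all tested genes the pairs differed by a median of 0.067 on that scale, and by less than 0.23 in 95% of genes.

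The count of called genes depended on how the spread was estimated. With 1 residual degree of freedom, the fit took its spread wholly from genes of like abundance. A limma fit on all 8 libraries, with separate terms for each line, called 140 genes (1.71%), of which 120 were higher (1.47%) and 20 lower (0.245%), and leaving out each PANC-1 library in turn gave 350 to 563 (350 without Tr+RoF, 447 without vehicle, 502 without Tr and 563 without RoF). With all genes of at least 1 TPM in 2 PANC-1 libraries, with or without a RefSeq mRNA entry, the 4-library fit called 0 of 17417, with 2555 at an unadjusted p under 0.05. With mitochondrially encoded genes taken out and TPM rescaled, the split was 529 higher and 1323 lower instead of 849 and 706, and the median change of all genes moved to -0.034 in both pairs. "Rose" and "fell" therefore refer to the 4-library test, and the 8-library result is given for the leading genes and as counts for the lists. The spread in the 8-library fit is pooled from both lines, so passing there also depends on how well the AsPC-1 pairs agree. For each list, the shares to compare with are the 10.4% of all genes that rose and the 8.63% that fell.

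**Figure D1:**
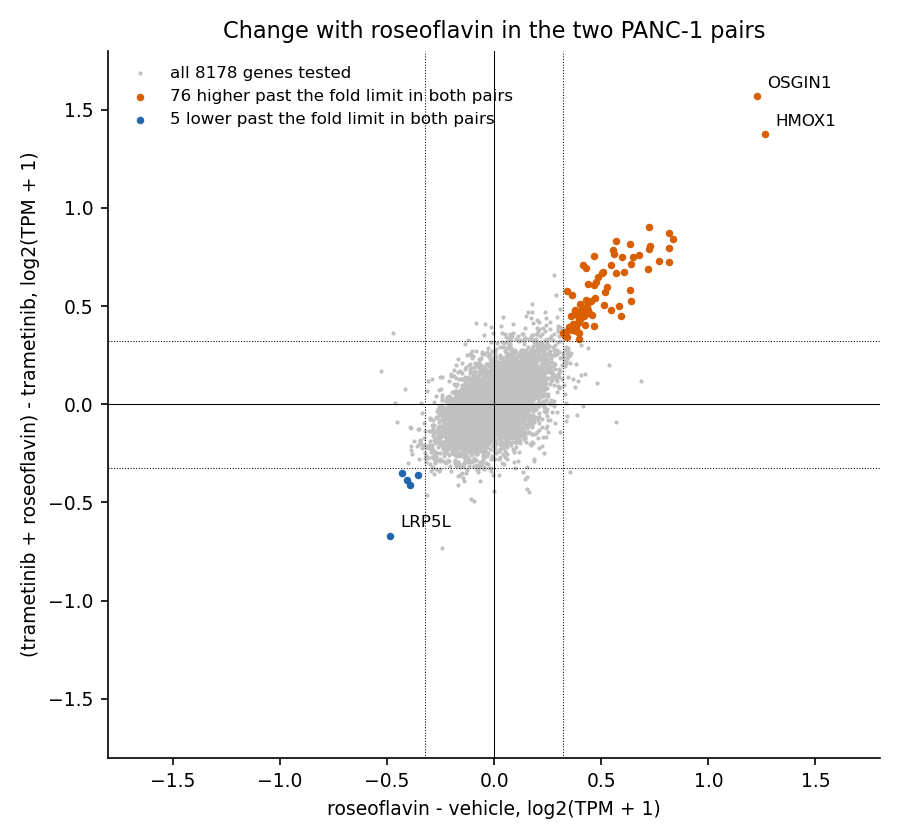
Change with roseoflavin of the 8178 tested genes on the log2(TPM + 1) scale, without trametinib (horizontal axis, RoF minus vehicle) and with it (vertical axis, Tr+RoF minus Tr). Dotted lines mark 25% higher and 20% lower; 76 genes lie past it on the higher side in both pairs and 5 on the lower side, and HMOX1 and OSGIN1 stand apart at the upper right.

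Over all tested genes, the changes of the 2 PANC-1 pairs had a Pearson's r of 0.62, against 0.31 for the same pairs in AsPC-1. The genes were filtered on PANC-1 abundance only, so the AsPC-1 value includes genes at or near 0 TPM there. The 2 values are therefore not on equal terms. These pairs share no library within a line, and genes are not independent replicates. On a principal component analysis of the 4 PANC-1 libraries the first component held 64.7% of the variance and placed RoF and Tr+RoF at 4.55 and 6.03 and vehicle and Tr at -5.30 and -5.28. Roseoflavin libraries thus lay on one side and the others on the opposite side. Of the 76 higher genes, 60 changed more in the pair with trametinib. Over all 76 the median difference, the pair with trametinib minus the pair without, was 0.062, against 0.0082 over all tested genes. The share of all tested genes that changed more with trametinib was not counted.

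HMOX1 and OSGIN1 had the largest rises. HMOX1, heme oxygenase 1, which breaks heme down to biliverdin, iron and carbon monoxide (chr22:35380361-35394214, plus strand, GRCh38), was at 273 TPM in vehicle, 657 in RoF, 257 in Tr and 668 in Tr+RoF. The roseoflavin libraries did not overlap the others, which the ranking by pair change favours. The change was 2.41-fold without and 2.60-fold with trametinib, a mean of 1.32 (SE 0.037) on the log2 scale (8-library limma, adjusted p = 0.000103). OSGIN1, oxidative stress induced growth inhibitor 1 (chr16:83948282-83966332, plus strand), was at 5.71 TPM in vehicle, 14.7 in RoF, 4.52 in Tr and 15.4 in Tr+RoF, a mean change of 1.40 (SE 0.073; 8-library limma, adjusted p = 0.000103). Its baseline was the lowest among the 15 largest rises, and all 4 values lay under 16 TPM. Both genes belong to the known NRF2 targets.

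**Figure D2:**
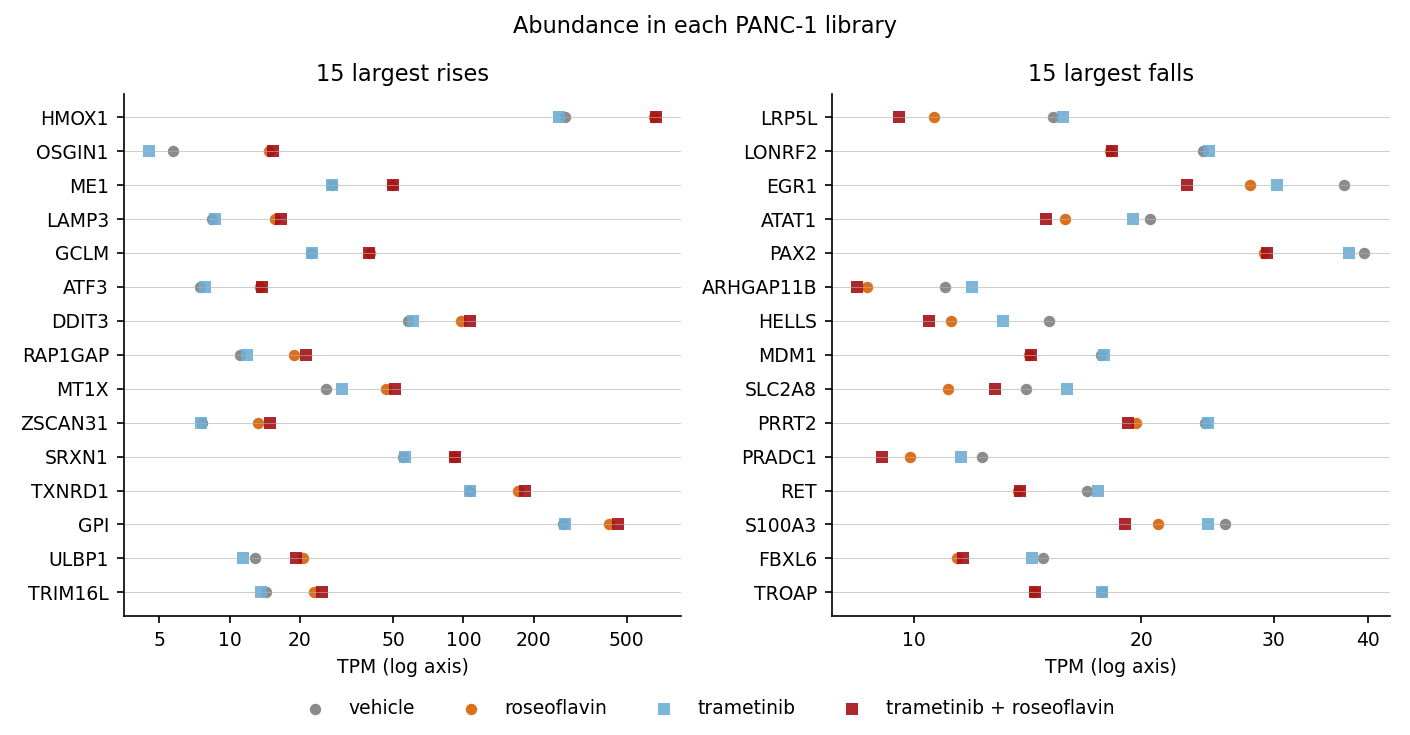
TPM on a log axis in each of the 4 PANC-1 libraries, with 1 point per library, for the 15 largest rises (left) and the 15 largest falls (right), ranked by the smaller of the 2 pair changes. In each row on the left both roseoflavin points lie to the right of both others, and in each row on the right they lie to the left. The ranking by pair change favours this separation.

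The listed glutathione and thioredoxin genes, many of them NRF2 targets, rose almost as a block. The list also holds CHAC1 and SLC3A2, which are counted again among the ATF4, CHOP and amino acid supply genes below. Of 10 tested, 9 rose (10.4% of all genes did), 8 of them also in the 8-library fit, with a median change of 0.37 without and 0.31 with trametinib. GCLM, the modifier subunit of the enzyme that starts glutathione synthesis, was at 22.3 TPM in vehicle, 39.9 in RoF, 22.4 in Tr and 39.7 in Tr+RoF. Its catalytic partner GCLC was at 18.0, 26.9, 17.1 and 29.8 TPM in the same order, so both subunits were higher with roseoflavin. TXNRD1, the cytosolic thioredoxin reductase and itself an FAD enzyme, was at 107 TPM in vehicle, 171 in RoF, 107 in Tr and 183 in Tr+RoF, a mean change of 0.72 (SE 0.040; 8-library limma, adjusted p = 0.000276). SRXN1, sulfiredoxin, which repairs overoxidised peroxiredoxins, was at 55.0, 91.3, 56.5 and 91.8 TPM. The other genes that rose were the glutathione-degrading CHAC1, the cystine carrier chain SLC3A2, glutathione reductase GSR, peroxiredoxin PRDX1 and thioredoxin TXN, by 0.23 to 0.36, of which TXN missed the 8-library threshold. Glutathione synthetase GSS, with a mean change of -0.03, did not pass.

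Detoxification genes and the enzymes that make NADPH were also higher. Of 10 NRF2 detoxification genes 7 rose, 6 of them also in the 8-library fit (median change 0.29 and 0.35). NQO1, a quinone reductase that carries FAD, went from 166 to 242 TPM without trametinib and from 172 to 241 TPM with it. PIR went from 29.1 to 40.6 and from 25.4 to 43.6 TPM, and SQSTM1, the autophagy receptor p62, from 327 to 426 and from 325 to 425 TPM. EPHX1, CBR1 and ABCB6 rose by 0.24 to 0.35, ABCB6 in the 4-library test only, while AKR1B1, GSTM3 and ABCC3 did not pass, at 0.08, 0.07 and -0.01. Of 8 NADPH-making enzymes 6 rose, 4 also in the 8-library fit. ME1, cytosolic malic enzyme, was at 27.3 TPM in vehicle, 49.6 in RoF, 27.4 in Tr and 49.9 in Tr+RoF, and its 2 pair changes, 0.84 and 0.84, were alike to 2 decimals. TKT, transketolase of the pentose phosphate pathway, went from 96.1 to 133 and from 95.1 to 145 TPM, and IDH1 rose by 0.35 (SE 0.044). PGD, a dehydrogenase of the same pathway, rose by 0.21 and did not pass in the 8-library fit. TALDO1 and MTHFD1 did not pass, at 0.04 and -0.12. NFE2L2, which encodes NRF2 itself, was at 25.2, 26.9, 24.9 and 25.98 TPM and did not pass; in its list of 5 BACH1 and small MAF genes MAFG and KEAP1 rose, by 0.22 and 0.13, and none passed in the 8-library limma fit, with 1 at an unadjusted p under 0.05.

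Antioxidant response elements, written here as TGACNNNGC with N for any base, were sought on both strands in the 250 bases before the RefSeq start of each gene (RefSeq, GRCh38.p14; 6769 of the 8178 genes had an entry). They were found in 12.6% of all promoters and in 3 of 14 (21.4%) of the NRF2, heme and NADPH genes past the fold limit with an entry. The share was 7 of 61 (11.5%) for all higher genes past the fold limit, 12.5% for all called higher genes and 3 of 15 for the hypoxia genes past the fold limit. The 3 matches of the NRF2, heme and NADPH genes are shown because their genes are among the largest rises; capitals mark the match, on the gene's strand for ME1 and TXNRD1 and on the opposite strand for GCLM.
ME1, chr6:83431160-83431208, minus strand: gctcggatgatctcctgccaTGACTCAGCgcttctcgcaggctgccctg
GCLM, chr1:93909436-93909484, minus strand: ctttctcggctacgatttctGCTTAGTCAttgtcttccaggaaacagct
TXNRD1, chr12:104215660-104215708, plus strand: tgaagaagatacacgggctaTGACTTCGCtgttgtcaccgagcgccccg
The match lies 137 to 129 bases before the start in ME1, 34 to 26 in GCLM and 99 to 91 in TXNRD1. A match is a description of the letters and not of binding.

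Heme and iron genes changed in part. Of 10 tested, 4 rose and 1 fell (10.4% and 8.63% of all genes did). The 4 rises, HMOX1, FTL, BLVRB and FTH1, also passed in the 8-library fit. FTL, the ferritin light chain, was at 2986 TPM in vehicle, 4544 in RoF, 2953 in Tr and 4714 in Tr+RoF. FTH1, the heavy chain, was at 2241, 3062, 2138 and 3077 TPM, so both ferritin chains were higher in each roseoflavin library. BLVRB, a flavin and biliverdin reductase, went from 28.0 to 42.7 and from 30.7 to 42.3 TPM. TFRC, the transferrin receptor that brings iron into the cell, fell by 0.23 (SE 0.050), from 38.6 to 32.4 TPM and from 39.1 to 33.7 TPM, but missed the threshold in the 8-library fit. BLVRA, the main biliverdin reductase, and ALAS1, the first enzyme of heme synthesis, did not pass, at -0.01 and 0.06. FTL and FTH1 have near-identical pseudogenes, so their levels are uncertain by the reads those may take.

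The ATF4 and CHOP genes rose together. Of 18 tested, 16 rose and 12 of them also passed in the 8-library fit, with a median change of 0.40 without and 0.45 with trametinib. DDIT3, which encodes CHOP (chr12:57516588-57521737, minus strand), was at 58.3 TPM in vehicle, 97.3 in RoF, 60.9 in Tr and 107 in Tr+RoF. The mean change was 0.77 (SE 0.043; 8-library limma, adjusted p = 0.000185). The groups did not overlap, which the ranking by pair change favours. ATF3, a stress-induced bZIP factor, went from 7.47 to 13.5 and from 7.88 to 13.7 TPM, TRIB3, a pseudokinase that CHOP induces, from 29.5 to 46.3 and from 32.6 to 49.4 TPM, and GDF15, a stress cytokine, from 70.1 to 100 and from 61.3 to 98.3 TPM. ATF4 itself rose less, from 236 to 269.5 and from 231 to 272 TPM (0.21, SE 0.038), and missed the 8-library threshold. PPP1R15A, which reverses eIF2α phosphorylation, rose by 0.25 and missed the 8-library threshold (limma, adjusted p = 0.0857). SESN2 rose by 0.46, CEBPB by 0.40 and STC2 by 0.57. ATF5 and the cell-death gene BBC3 did not pass, at -0.04 and -0.02.

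Amino acid supply and aminoacyl-tRNA synthetases followed with smaller changes. Of 15 supply genes 11 rose, 4 of them also in the 8-library fit: ASNS (asparagine synthetase), PSAT1 (serine synthesis), MTHFD2 (mitochondrial folate cycle) and SLC3A2. ASNS was at 72.7 TPM in vehicle, 99.3 in RoF, 73.3 in Tr and 101 in Tr+RoF, and PSAT1 at 168, 225, 162 and 222 TPM. The 2 libraries with roseoflavin were alike and above both others in each, which choosing genes by their pair changes favours. SLC38A2, ALDH18A1, PSPH and SLC6A9 did not pass. Of 20 synthetases 12 rose, 3 also in the 8-library fit: GARS1, SARS1 and AARS1, by 0.34, 0.35 and 0.30. With mitochondrial genes taken out the synthetase count was 8. ER chaperones, the output of the other arms of the unfolded protein response, were divided: of 18 tested 5 rose and 4 fell, and with mitochondrial genes taken out 3 rose and 6 fell. In the 8-library limma fit 2 rose, HSPA5 and DNAJB9, and 0 fell, with 2 falls at an unadjusted p under 0.05. HSPA5, the chaperone BiP, went from 259 to 307 and from 250 to 310 TPM and DNAJB9 rose by 0.31, whereas CALR fell from 823 to 724 and from 820 to 730 TPM and CRELD2 fell by 0.24. XBP1 was at 45.4, 44.2, 45.8 and 45.3 TPM and did not pass. In the cytosolic heat shock list 9 of 14 genes fell (8.63% of all genes did), among them HSPH1, DNAJA1 and HSP90AA1 by 0.18, 0.16 and 0.13, and none passed in the 8-library limma fit, with 6 at an unadjusted p under 0.05.

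The CEBP-ATF element of ATF4 targets, written TGATGNAA, was found on either strand in 1.29% of all promoters and in 3 of the 13 (23.1%) ATF4, CHOP and amino acid supply genes past the fold limit with an entry, and in 3 of 61 (4.92%) of all higher genes past that limit. They are shown as the matches behind this count, with the element in capitals, on the opposite strand in CHAC1.
ATF3, chr1:212565196-212565243, plus strand: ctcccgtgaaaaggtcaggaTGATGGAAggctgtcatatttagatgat
ASNS, chr7:97872449-97872496, minus strand: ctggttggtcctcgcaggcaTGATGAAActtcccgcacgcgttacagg
CHAC1, chr15:40953242-40953289, plus strand: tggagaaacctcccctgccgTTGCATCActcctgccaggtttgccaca
The element starts 191 bases before the start in ATF3, 68 in ASNS and 209 in CHAC1.

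Hypoxia genes were higher, in glycolysis and outside it. Of 20 glycolysis genes 14 rose, 7 also in the 8-library fit (median change 0.27 and 0.25), and of 17 others 16 rose, 6 also in the 8-library fit (0.36 and 0.38). GPI, glucose-6-phosphate isomerase (chr19:34359480-34402413, plus strand), was at 267 TPM in vehicle, 419 in RoF, 272 in Tr and 459 in Tr+RoF, a mean change of 0.70 (SE 0.037; 8-library limma, adjusted p = 0.000353). It had the largest change of the glycolysis list. The glucose transporter SLC2A1 went from 55.1 to 80.0 and from 55.0 to 83.6 TPM, the aldolase ALDOC from 88.4 to 130 and from 83.8 to 145 TPM, and hexokinase 2 (HK2) from 30.4 to 44.9 and from 29.9 to 49.7 TPM. The abundant housekeeping enzyme GAPDH also rose, from 4854 to 6112 and from 4954 to 6303 TPM. ENO1, PKM, TPI1, PGAM1 and LDHA had mean changes of 0.07, 0.04, 0.05, 0.08 and 0.01, and none of these 5 passed. Outside glycolysis the ER oxidase ERO1A, which carries FAD, went from 94.5 to 136 and from 94.5 to 141 TPM, VEGFA from 47.8 to 63.4 and from 47.7 to 66.0 TPM, DDIT4, an inhibitor of mTORC1 signalling, from 645 to 867 and from 690 to 913 TPM, and BNIP3, a mitophagy receptor, from 161 to 213 and from 167 to 216 TPM. ERO1A, VEGFA and DDIT4 also stand in the ATF4 list. KDM4B did not pass, at 0.15.

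The core of the hypoxia response element, ACGTG on either strand, was found in 24.9% of all promoters and in 11 of the 15 (73.3%) hypoxia-list genes past the fold limit with an entry. It was found in 22 of 61 (36.1%) of all higher genes past that limit. The list holds known HIF targets, which were partly recognised by this element, so the count describes the list. The core is also part of the E-box CACGTG and of unrelated sites. Sites are placed before the RefSeq start, whereas gene coordinates are from GENCODE. In GPI and ENO2 the sites lie inside the GENCODE span of the gene, because the 2 sources place the start differently. Of the 11, 6 are shown, with the match in capitals, which reads CACGT where it lies on the opposite strand.
GPI, chr19:34364810-34364854, plus strand: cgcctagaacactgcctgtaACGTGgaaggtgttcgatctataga
ALDOC, chr17:28576899-28576943, minus strand: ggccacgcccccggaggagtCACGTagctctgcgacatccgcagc
HK2, chr2:74834059-74834103, plus strand: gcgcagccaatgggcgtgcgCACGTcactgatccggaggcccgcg
DDIT4, chr10:72273779-72273823, plus strand: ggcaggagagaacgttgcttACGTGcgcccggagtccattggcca
ENO2, chr12:6914442-6914486, plus strand: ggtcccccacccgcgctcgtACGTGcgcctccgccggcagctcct
P4HA1, chr10:73096928-73096972, minus strand: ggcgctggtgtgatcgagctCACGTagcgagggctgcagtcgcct

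Sterol and fatty acid synthesis genes were higher at most steps. Of 8 mevalonate pathway genes 7 rose, 5 also in the 8-library fit (median change 0.26 and 0.29). HMGCS1 went from 26.7 to 34.3 and from 27.1 to 35.8 TPM and MVD from 34.6 to 43.1 and from 32.8 to 46.3 TPM, whereas PMVK did not pass, at -0.06. Of 13 genes from squalene to cholesterol 7 rose and 1 (TM7SF2, by 0.12) fell, and only MSMO1, at 42.2, 57.3, 44.7 and 65.0 TPM, passed in the 8-library fit. Of 13 genes of SREBP regulation, lipid uptake and lipogenesis 11 rose, 7 also in the 8-library fit. SCD, which makes monounsaturated fatty acids, was at 1868 TPM in vehicle, 2645 in RoF, 1860 in Tr and 2959 in Tr+RoF, and INSIG1, a sterol sensor partner and SREBP target, at 53.2, 76.4, 55.2 and 78.9 TPM. ACSS2, FADS1 and ACLY rose by 0.46, 0.41 and 0.31.

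**Figure D3:**
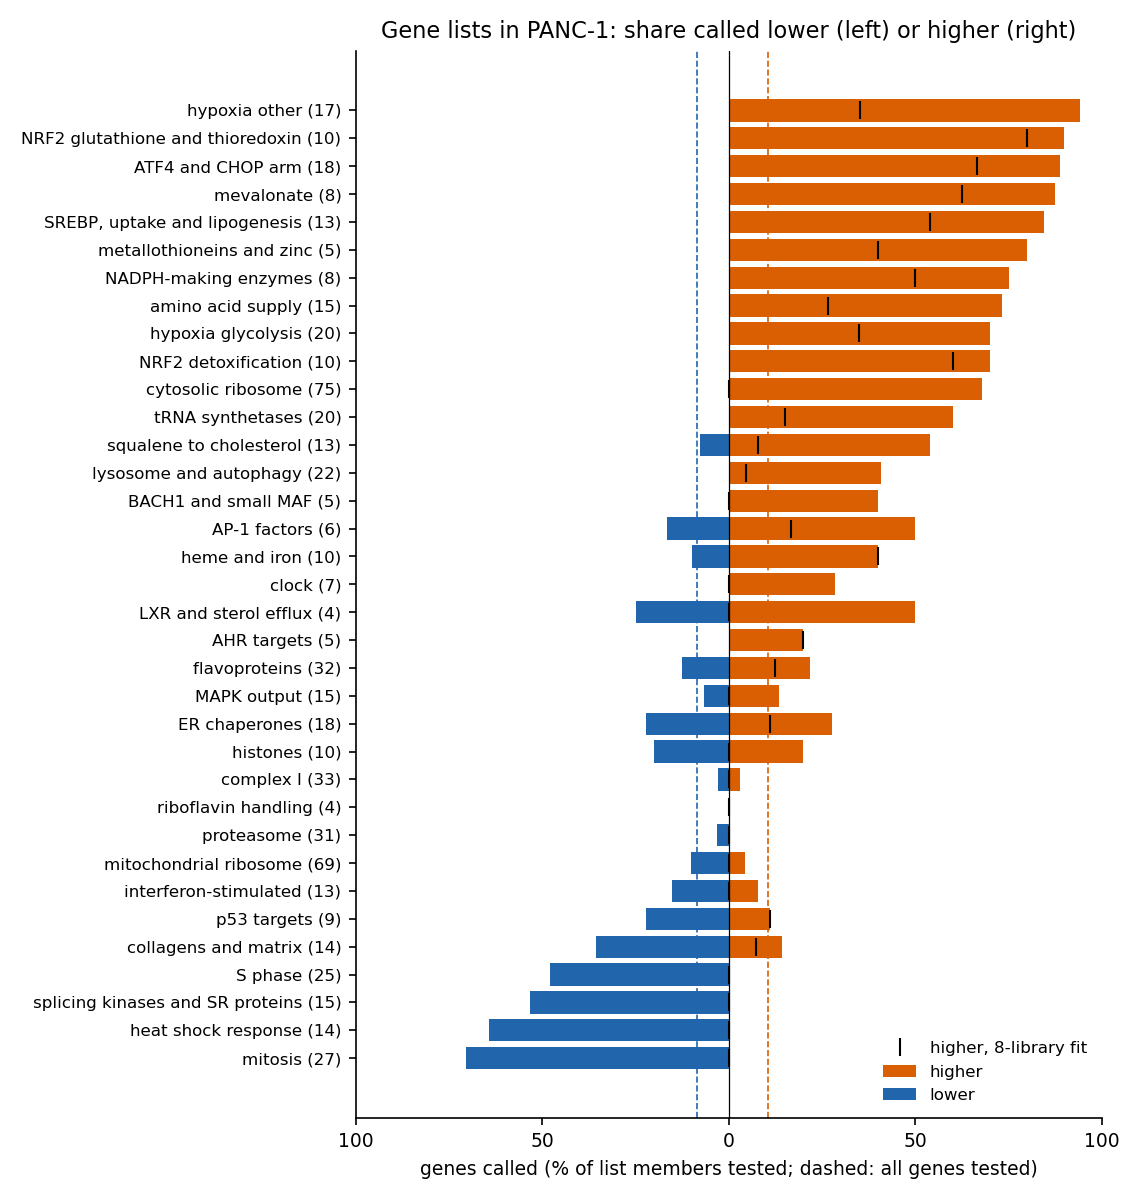
Share of the tested members of each of 35 gene lists that was called higher (orange, to the right) or lower (blue, to the left) in the 4-library test, with the number tested in brackets; black ticks give the share called higher in the 8-library fit and dashed lines the 10.4% and 8.63% of all genes. The stress, hypoxia and lipid lists extend to the right, and the mitosis, heat shock, splicing and S phase lists to the left.

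Metal-binding and lysosomal genes were partly higher. MT1X was at 25.98 TPM in vehicle, 46.5 in RoF, 30.4 in Tr and 50.8 in Tr+RoF, MT1E at 104, 162, 125 and 180 TPM, and MT2A at 666, 809, 645 and 826 TPM. All 3 metallothioneins, small metal-binding proteins with near-identical sequences, rose, and MT1X missed the threshold in the 8-library fit (limma, adjusted p = 0.063). Of 22 lysosome and autophagy genes 9 rose (10.4% of all genes did), 1 of them (SQSTM1) also in the 8-library fit. With mitochondrial genes taken out 6 rose. CTSD went from 954 to 1082 and from 953 to 1091 TPM. Among 14 collagen and matrix genes 5 fell (8.63% of all genes did), among them COL7A1 and THBS1 by 0.25 and 0.22, and 2 rose. In the 8-library limma fit 1 rose and 0 fell, with 3 falls at an unadjusted p under 0.05.

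Genes that handle riboflavin did not pass in PANC-1. RFK, FLAD1, the transporter SLC52A2 and the mitochondrial FAD carrier SLC25A32 had mean changes of -0.02, -0.08, -0.01 and 0.10, and the limma test called 0 of 4, with 0 at an unadjusted p under 0.05. RFK was at 15.7 TPM in vehicle, 15.4 in RoF, 15.02 in Tr and 14.8 in Tr+RoF. Among 32 flavoproteins 7 rose (21.9%, against 10.4% of all genes) and 4 fell. Among the rises were TXNRD1, ERO1A, GSR, NQO2, POR and HTATIP2; the falls were DUS1L, MICAL1, FOXRED1 and ACADVL, by 0.12 to 0.19. In the 8-library limma fit 4 of the 32 rose and 0 fell, with 3 falls at an unadjusted p under 0.05. The acyl-CoA dehydrogenases ACADM, ACADS and ACADSB, the electron transfer flavoproteins ETFA and ETFB, and SDHA did not pass. In respiratory complex I 1 of 33 nuclear-encoded genes rose and 1 fell; with mitochondrial genes taken out 5 fell, and in the 8-library limma fit 0 passed, with 0 at an unadjusted p under 0.05.

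Cell cycle genes were slightly lower. In the mitosis list 19 of 27 genes fell (8.63% of all genes did), with a median change of -0.14 without and -0.16 with trametinib. In the S phase list 12 of 25 fell, with medians of -0.12 and -0.14. The proliferation marker MKI67 was at 64.5 TPM in vehicle, 52.6 in RoF, 64.3 in Tr and 53.2 in Tr+RoF. It was the only gene of the mitosis list that passed in the 8-library limma fit, where 18 had an unadjusted p under 0.05; none of the S phase list did, with 12 under 0.05 unadjusted. ASPM, a spindle protein, fell by 0.30 and PLK1, a mitotic kinase, by 0.23. UBE2C and MCM5 did not pass, at 0.03 and 0.02. With mitochondrial genes taken out 24 and 18 genes of these lists fell. In bulk RNA, fewer cycling cells and less RNA per cell cannot be told apart. The p53 target CDKN1A was at 128, 122, 130 and 125 TPM and did not pass. Among 15 splicing kinases and SR proteins 8 fell (8.63% of all genes did), SRSF2 from 260 to 223 and from 263 to 228 TPM. Of these 15, 0 passed in the 8-library limma fit, with 8 under 0.05 unadjusted.

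The cytosolic ribosomal protein genes rose in number but little in size. Of 75 tested 51 rose, with a median change of 0.16 without and 0.07 with trametinib. With mitochondrial genes taken out 25 rose and with quantile normalization 23, and 0 passed in the 8-library limma fit, with 26 at an unadjusted p under 0.05. The lower share of mitochondrial transcripts in both roseoflavin libraries moves with this list, and many of its genes have processed pseudogenes.

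The 15 largest falls were all under 0.7 on the log2 scale. LRP5L was at 15.3 TPM in vehicle, 10.6 in RoF, 15.8 in Tr and 9.54 in Tr+RoF, a mean change of -0.58 (SE 0.066; 8-library limma, adjusted p = 0.00252). EGR1, an immediate early gene downstream of ERK, was at 37.2, 27.9, 30.3 and 23.0 TPM. It was lower both with roseoflavin and with trametinib, and lowest with both. PAX2, a developmental transcription factor, was at 39.5, 29.1, 37.7 and 29.4 TPM, the receptor tyrosine kinase RET at 17.0, 13.7, 17.5 and 13.8 TPM, and HELLS, a chromatin remodeller of dividing cells, at 15.1, 11.2, 13.1 and 10.5 TPM. Of the 15, 9 passed in the 8-library fit: LRP5L, EGR1, ATAT1, PAX2, ARHGAP11B, HELLS, MDM1, SLC2A8 and RET. ARHGAP11B is a near-copy of ARHGAP11A, so its level is uncertain. Among 15 MAPK output genes EGR1 was the only fall, DUSP5 and IER3 rose by 0.29 and 0.15 (10.4% of all genes rose), and DUSP6, SPRY4 and CCND1 did not pass. In the 8-library limma fit EGR1 passed and 0 rose, with 2 rises at an unadjusted p under 0.05.

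Several of the 15 largest rises were not named with the pathways above. Whether those pathways act on them was not tested. LAMP3, a lysosomal membrane protein, was at 8.44 TPM in vehicle, 15.6 in RoF, 8.64 in Tr and 16.7 in Tr+RoF, and ULBP1, a ligand of the natural killer receptor NKG2D, at 12.8, 20.5, 11.4 and 19.3 TPM. RAP1GAP, which switches off the GTPase RAP1, was at 11.1, 18.9, 11.8 and 21.2 TPM. ZSCAN31, a zinc finger gene, was at 7.61, 13.2, 7.53 and 14.9 TPM, and TRIM16L (identifier ENSG00000108448), a near-copy of part of TRIM16, at 14.4, 22.9, 13.7 and 24.8 TPM. In all 5 the roseoflavin libraries lay above the others. Picking genes for large changes in both pairs, here and above, favours such a separation. The share of all tested genes that show it was not counted.

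The response of some genes differed from that in AsPC-1, the other line given the same treatments. The genes tested were filtered on PANC-1 abundance only. Some were low in AsPC-1, such as RAP1GAP, which did not exceed 1.501 TPM there. For such genes the log2(TPM + 1) scale understates a change in AsPC-1, which can enlarge the difference between the lines. A limma fit on the 8 libraries tested the change in PANC-1 minus the change in AsPC-1 and called 177 genes (2.16%), 159 with a more positive change in PANC-1 (1.94%) and 18 with a more negative one (0.220%). With mitochondrially encoded genes taken out the split was 105 and 68, and with quantile normalization 80 and 41. Of the 76 genes past the fold limit in PANC-1, 62 were among the 159, 0 were past the fold limit higher in both AsPC-1 pairs, 20 were higher in both AsPC-1 pairs by any amount and 35 were lower in both. The 76 were picked by their PANC-1 change, which also enters this difference, so the 62 is a description. HMOX1 was at 11.1 TPM in AsPC-1 vehicle, 8.38 in RoF, 12.4 in Tr and 12.6 in Tr+RoF, so that its level was far below that of PANC-1 in each treatment and its response differed by 1.49 (SE 0.12; limma, adjusted p = 0.00053).

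The medians of the hypoxia lists had opposite signs in the lines. Their median change in AsPC-1 was -0.13 without and -0.17 with trametinib for glycolysis and -0.22 and -0.47 for the others, against 0.27, 0.25, 0.36 and 0.38 in PANC-1. The line difference was called for 11 of 20 and 13 of 17 genes, all more positive in PANC-1. Of all tested genes 1.94% were called more positive in PANC-1 and 0.220% more negative. ENO2, the neuronal enolase, was at 103, 135, 105 and 143 TPM in PANC-1 and at 20.2, 11.6, 15.6 and 7.58 TPM in AsPC-1. DDIT4 was at 99.6, 71.1, 110 and 76.0 TPM in AsPC-1, where the roseoflavin libraries were the lower ones, and DDIT3 at 35.4, 26.4, 36.3 and 26.7 TPM. MT1E was at 49.6, 39.1, 55.9 and 42.2 TPM there. In the ATF4 and CHOP list 12 of 18 genes were called for the difference, all more positive in PANC-1. ERO1A, VEGFA and DDIT4 stand in both this list and the hypoxia lists, so the counts are not separate.

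Of the antioxidant genes, TXNRD1 and SRXN1 were higher with roseoflavin in both lines, and by more in PANC-1. TXNRD1 in AsPC-1 was at 154 TPM in vehicle, 195 in RoF, 179 in Tr and 207 in Tr+RoF, and SRXN1 at 57.6, 71.6, 54.6 and 64.4 TPM. The changes of both were positive in both lines and 0.44 and 0.43 larger in PANC-1 (SE 0.077 and 0.073). NQO1 was at 337, 338, 375 and 376 TPM in AsPC-1, above its PANC-1 level and with a mean change of 0.00. HMGCS1 of the mevalonate pathway changed by 0.17 and 0.17 in AsPC-1 against 0.35 and 0.39 in PANC-1, and this difference did not pass (limma, adjusted p = 0.2). Of the genes with a more negative change in PANC-1, CTXN1 was at 117, 96.5, 115 and 97.0 TPM in PANC-1 and at 13.6, 17.2, 14.02 and 17.6 TPM in AsPC-1, and DKK1, a secreted WNT inhibitor, at 650, 573, 642 and 575 TPM and at 183, 231, 134 and 174 TPM. DKK1 missed the threshold for its PANC-1 change in the 8-library fit (limma, adjusted p = 0.135). FJX1, TGFB2 and RASD1 also fell in PANC-1 in the 4-library test but missed the 8-library threshold (limma, adjusted p = 0.174, 0.134 and 0.068). In AsPC-1 FJX1 was at 5.26, 6.98, 4.35 and 6.14 TPM, TGFB2 did not exceed 1.75 TPM and RASD1 did not exceed 0.368 TPM. The share of mitochondrial TPM, 41.2% to 44.1% in AsPC-1, was higher than in PANC-1 and was not lower in both roseoflavin libraries there; with these genes taken out 173 genes were called for the line difference, with the split given above.

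**Figure D4:**
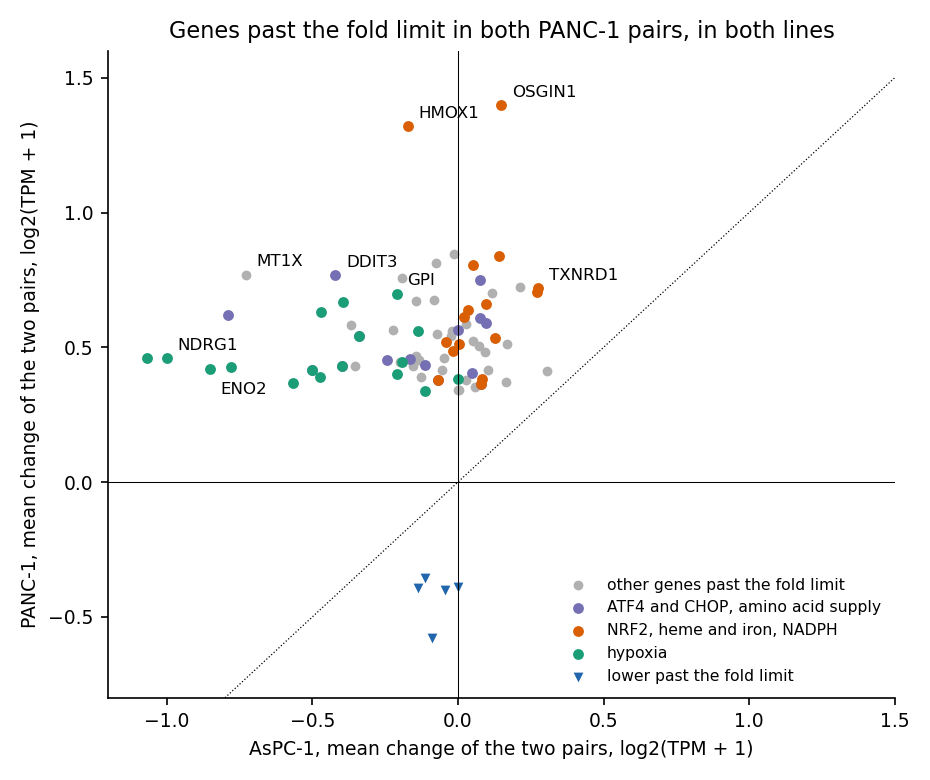
Mean change of the 2 pairs on the log2(TPM + 1) scale in AsPC-1 (horizontal) and PANC-1 (vertical) for the 76 higher and 5 lower genes past the fold limit in both PANC-1 pairs, coloured by list. The dotted line marks equal change; nearly all hypoxia genes lie to the left of 0, NRF2 genes such as TXNRD1 near or right of it.

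Properties of the genes that the membership rule did not use differed little or moderately. The median GC content of the longest annotated transcript was 49.95% over all tested genes, 49.98% for the called higher, 52.92% for the 76 past the fold limit and 56.04% for the called lower genes, and the median transcript lengths were 3249, 2858, 2851 and 2771 bases. The median abundance was 30.2 TPM over all tested genes, 42.3 TPM for the called higher and 34.5 TPM for the called lower genes.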

How the data were processed

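The values are gene-level TPM from 1 table that the authors deposited, whose 8 value columns carry that unit per the file headers. Per the submitters' processing notes, STAR 2.7.3a, HTSeq 2.0.2 and the build hg38 were used; how TPM was computed from them and with which annotation is not given in the sources used here. Per the labels' protocols, RNA came from a column kit and libraries from a stranded mRNA kit. Each library sums to 1000000 TPM, so depth is unknown and no counting interval could be given.

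Genes with a RefSeq mRNA entry and a mean of at least 10 TPM over the PANC-1 libraries were analysed as log2(TPM + 1), which understates the change of low genes. The roseoflavin effect was estimated in R 4.3.3 by limma 3.58.1 (linear model, empirical Bayes with a trend, trametinib as an additive term, 1 residual degree of freedom), two-sided, with Benjamini-Hochberg adjustment over all 8178 genes and a threshold of 0.05. The line difference used 8 libraries and a line by roseoflavin term with 2 residual degrees of freedom. Standard errors come from these fits. With 1 library per treatment, p-values do not measure the spread between cultures. In the 4-library fit a change is set against the pair disagreement typical of genes of like abundance, not against the gene's own. Of the called genes, 15 did not have the same sign in both pairs. The 8-library fits use in part the gene's own disagreement, in both lines.

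Members and the 35 gene lists (708 genes, 602 tested) were chosen with earlier results of these data known. Genes named were the 15 largest rises and falls by the smaller pair change, HMOX1, DDIT3 and GPI, list members, and the 5 smallest adjusted p in each direction for the line difference; genes with values in the closing observations were picked after they were seen. Alternatives were other pseudocounts (0.1 and 10), a filter of at least 1 TPM in 2 libraries, quantile normalization, removal of mitochondrial genes, no prior trend, a robust prior, no trametinib term, all 8 libraries, a 1.5-fold limit and leaving out each library. The filter of at least 1 TPM did not require a RefSeq mRNA entry. Coordinates are from GENCODE release 29 on GRCh38, where 8171 of the genes were found, and promoters from RefSeq. The fits were tested on simulated data.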

Additional observations from a re-analysis of the deposited data

Results flagged for a closer look

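The change with roseoflavin in PANC-1 minus that in AsPC-1 (log2, limma on 8 libraries) passed the threshold for 177 of 8178 genes, and for 25 of the 38 named genes tested. It was positive for 18 of these 25. The named genes include those with the smallest adjusted p for this same difference in each direction, which pass by that choice. ENO2, DDIT4, MT1E, CTXN1, DKK1, FJX1, TGFB2 and RASD1 stand among the 38 only for this reason. The other named genes were picked by their PANC-1 change, which also enters the difference. The 25 and the 18 therefore describe the picked genes and are not a test. The largest differences were 1.498 for MT1X, 1.49 for HMOX1, 1.27 for ENO2, 1.248 for OSGIN1 and 1.19 for DDIT3. In MT1X, ENO2 and DDIT3 both AsPC-1 pairs were lower with roseoflavin. Differences of 0.95 for RAP1GAP, 0.95 for MT1E, 0.91 for DDIT4, 0.91 for GPI, 0.89 for ZSCAN31, 0.86 for LAMP3, 0.76 for ULBP1, 0.75 for GCLM, 0.70 for ME1 and 0.68 for ATF3 followed. The smallest positive ones were 0.51 for TRIM16L (ENSG00000108448), 0.44 for TXNRD1 and 0.43 for SRXN1. The negative ones were -0.39 for PAX2, -0.49 for LRP5L, -0.52 for DKK1, -0.54 for RASD1, -0.57 for TGFB2, -0.57 for CTXN1 and -0.58 for FJX1. PAX2 was listed at 0 TPM in all 4 AsPC-1 libraries, and LAMP3 and ULBP1 did not exceed 0.154 TPM there in any. RASD1 did not exceed 0.368 TPM and TGFB2 did not exceed 1.75 TPM in AsPC-1. RAP1GAP, OSGIN1, TRIM16L, LRP5L, ATF3, ZSCAN31, ME1 and GCLM did not exceed 4.97 TPM there.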

How the results depend on the processing

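The number of genes called for roseoflavin in PANC-1 (1555) became 0 of 17417 with the filter of at least 1 TPM in 2 libraries (limma, 2555 at an unadjusted p under 0.05), 580 without the trametinib term, 140 with all 8 libraries, and 350 to 563 when each library was left out. With pseudocounts of 0.1 and 10 it was 1556 and 1555, without the prior trend 1290, with quantile normalization 1165 and without mitochondrial genes 1852. Of the 1555, 216 were also called in each of the 4 fits that left out a library, and 123 of these also with all 8 libraries. Members numbered 10967 with the lower filter (5521 higher, 5446 lower), which also dropped the RefSeq mRNA requirement. The 81 genes past the fold limit became 726 with that filter (372 higher, 354 lower) and 17 at 1.5-fold, all higher. The 177 genes called for the line difference became 116 with a pseudocount of 0.1 and 0 of 17417 with the lower filter (limma, 2070 unadjusted). For 30 named genes, 285 of 330 values under alternatives kept direction and call and 45 kept direction only, 30 of them with the lower filter; none reversed. The causes were not tested. Libraries could not be paired by replicate, because each treatment had 1 library with no replicate number in its labels. The pairs used here are set by trametinib. With no depth, the precision of low values is unknown.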

Other observations

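Of the 76 genes past the fold limit in both PANC-1 pairs, 23 stand in no list. Among them were genes of lipid storage and transport: PLIN2, which coats lipid droplets, was at 18.8 TPM in vehicle, 28.7 in RoF, 19.8 in Tr and 28.4 in Tr+RoF, and the apolipoprotein APOC1 at 13.8, 18.9, 12.9 and 21.5 TPM. GPT2, mitochondrial alanine aminotransferase, was at 16.8, 23.8, 15.6 and 24.6 TPM, PCK2, mitochondrial PEP carboxykinase, at 32.8, 44.0, 33.7 and 47.3 TPM, and PYGL, glycogen phosphorylase, at 42.5, 55.2, 39.3 and 52.5 TPM. TSC22D3, known as a glucocorticoid-induced gene, was at 11.7, 18.3, 11.1 and 19.4 TPM, and the abundant lysosomal protein PSAP at 2904, 3633, 2920 and 3750 TPM. TRIM16 was at 15.001, 21.2, 15.9 and 23.6 TPM, alongside its near-copy TRIM16L. In each of these genes both roseoflavin libraries lay above both others, which the fold limit that picked them favours.

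Among the 20 genes called lower with all 8 libraries were H2AX, a histone variant of the DNA damage response, at 190, 154, 187 and 154 TPM, EDN1, endothelin 1, at 56.1, 44.9, 53.9 and 44.7 TPM, and the transcription factor GATA2 at 25.5, 19.3, 25.4 and 21.5 TPM.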
